A study of Drosophila melanogaster with 4 samples.

Results

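Broad isolated Su(Hw) peaks are the long, lone stretches of Su(Hw) enrichment in late Drosophila melanogaster embryos. They were chosen by 2 measured values, the width of an interval and its gaps to the neighbouring intervals: at least 1000 bp wide, on the arms X, 2L, 2R, 3L, 3R and 4, with the nearest interval on either side more than 5000 bp away and a missing neighbour counted as infinitely far. This rule took 684 of the 4760 peaks on these arms, or 14.4% (95% interval by the exact Clopper-Pearson method from 13.4 to 15.4%, for counting error alone). The whole list held 4993 intervals, of which the chosen peaks made up 13.7%.

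Su(Hw), encoded by Suppressor of Hairy-wing, is a zinc-finger protein best known for binding the insulator of the gypsy retrotransposon. There it recruits partner proteins, among them CP190 and an isoform of Mod(mdg4), and the insulator blocks communication between an enhancer and a promoter on its other side. In the gypsy insulator several Su(Hw) binding sites lie in a cluster, whereas most of its sites elsewhere in the genome are not copies of gypsy. Su(Hw) is also needed for oogenesis in the female germ line, where it represses genes.

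The peaks came from chromatin immunoprecipitation and sequencing (ChIP-seq) of embryos aged 16 to 24 h, fixed in 1.8% formaldehyde for 15 min, with 2 ChIP and 2 input libraries by the labels. All libraries shared the y; cn bw sp background, the strain from which the reference genome was sequenced. By the labels it carried y[1] and oc[R3.2] on the X chromosome, then Gr22b[1] with Gr22d[1] and cn[1] on the second, which also bore CG33964[R4.2] next to bw[1] and sp[1], and LysC[1], lab[R4.2], MstProx[1], also GstD5[1] and Rh6[1], on the third. Su(Hw) was precipitated with polyclonal rabbit antibodies purified by affinity, and whole embryos were used, so a peak is an average over all cell types present. The deposited result is 1 list with a start, an end and 1 score per interval and no value per library, so the depth behind each peak, its spread between replicates and its ratio to input are unknown. A peak's score stems from the calling that also set its width and its gaps, so all values below are descriptions of the list and none was tested. Positions are those of FlyBase release 5 as deposited; no annotation or sequence of that build was used, so peaks are not tied to genes here.

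The width limit and the gap limit each kept a similar number of peaks. Of the 4760 peaks, 1776 (37.3%) were at least 1000 bp wide and 1848 (38.8%) had both gaps above 5000 bp. The broad isolated peaks made up 38.5% of the broad peaks and 37.0% of the isolated ones. They covered 1474 kb, or 26.7% of the bases in all peaks of these arms. The other isolated peaks, 1164 in number, were narrow and covered only 10.6%.

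The broad isolated peaks were mostly strong. They had a median width of 1802.5 bp and quartiles of 1306 and 2648 bp, between extremes of 1001 and 11808 bp. Their scores, the authors' peak caller's own values, had a median of 187.9 and an interquartile range of 96.8 to 337.3, and ran from 16.36 to 1029.31. A score of 100 or more was held by 504 of the 684, or 73.7%, where 29.8% of all peaks on the arms reached it. The exact 95% interval of 70.2 to 76.9% is for counting error alone and takes peaks as independent, although they come from 1 list. Among other broad peaks, a score of 100 was reached by 68.8% of those with a neighbour at 1000 to 5000 bp. It was reached by 80.5% of those with one within 1000 bp. The width that chose the members comes from the same signal as the score, so nothing is read from these differences. Scores of 300 or more were held by 206 (30.1%) and of 500 or more by 61 (8.92%). At the other end, 48 (7.02%) scored below 50, and 11 scored at or below the median of all peaks on the arms. None was among the 1190 weakest of the 4760 peaks, which scored at most 14.01. Nor was any broad peak with a neighbour at 1000 to 5000 bp, whose lowest score was 21.02. The lowest score of broad peaks with a neighbour within 1000 bp was 12.33.

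**Figure D1:**
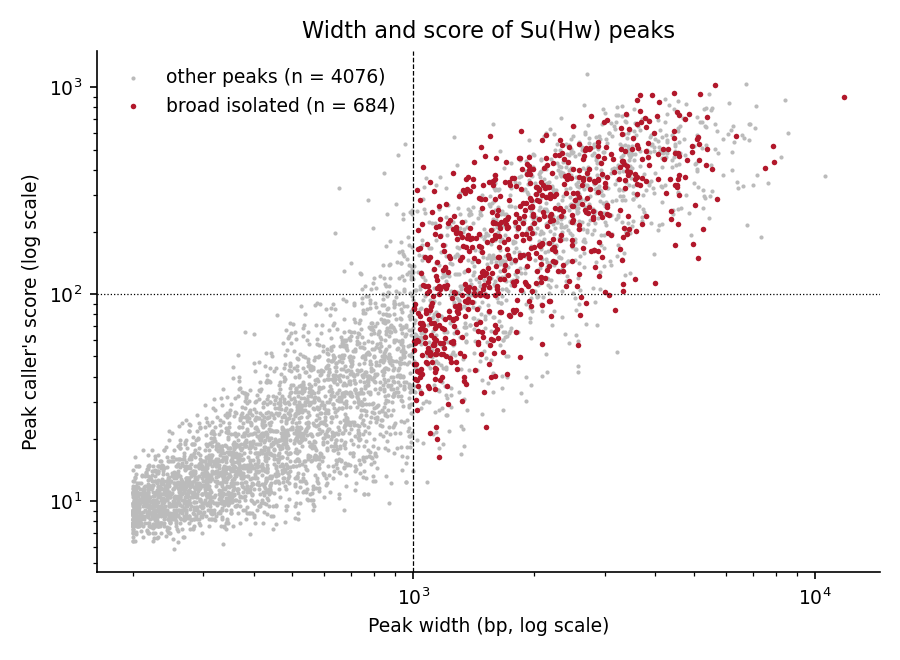
Score against width for each of the 4760 peaks on the 6 arms, both on log scales, with the 684 broad isolated peaks in red and the other 4076 in grey; the dashed line marks 1000 bp and the dotted line a score of 100. The red points run from a score of 16.36 to 1029.31 and lie among grey points of like width.

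Peaks just inside and just outside the limits of the rule had scores in the same range. The narrowest members were tied at 1001 bp. They lay on 3L from 12351966 to 12352967 (score 45.95) and from 17922658 to 17923659 (score 59.72), and on 2R from 15086590 to 15087591 (score 84.83). The widest isolated peak left out was 999 bp wide, on 3L from 14183013 to 14184012, and scored 128.3. The 63 members at most 100 bp above the width limit had a median score of 67.3, beside 66.1 for the 74 isolated peaks less than 100 bp below it. On the spacing side, the member with the smallest gap, 5014 bp, lay on 3R from 8476347 to 8480637 and scored 501.06. The broad peak just outside had a gap of 4980 bp, lay on 3L from 9056358 to 9060949 and scored 423.4. Over the 39 members at most 500 bp above the gap limit the median score was 169.0, and over the 19 broad peaks at most 500 bp below it 210.4.

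Among the highest-scoring peaks, broad isolated ones were outnumbered by broad ones with a closer neighbour in the first 100, 500 and 1190, but not in the first 15. Of the 15 highest-scoring peaks on the arms, 8 were broad and isolated, and the other 7 were broad with a neighbour within 1000 bp. Of the 100 highest, 30 were broad and isolated, 63 had a neighbour within 1000 bp and 7 had one at 1000 to 5000 bp. The 500 highest held 177 (35.4%), beside the 38.5% of all broad peaks that were isolated. Of the 1190 strongest peaks, 424 (35.6%) were broad and isolated, which was 62.0% of the 684, where 25.0% of all peaks belong to the 1190 by definition; nothing is read from this share either. Only 33 of those 1190 were narrower than 1000 bp, whereas 1776 peaks in all were broad, so most strong peaks were broad but many broad peaks were not among the strongest.

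Of the 10 highest-scoring members, 5 were on 3L, 2 on 3R, 2 on 2L and 1 on X. Over all members, 3L held 18.6%, 3R 23.5%, 2L 17.3%, 2R 18.7% and X 21.6%. The 10 were picked by their score, and no preference for an arm is read from so few. The strongest, on 3L from 22885292 to 22890908, scored 1029.31, the third highest value of all peaks. It was 5616 bp wide, and its gaps to the left and right were 157 and 12.8 kb. The second lay on 3R from 3709154 to 3713603, scored 939.82 and had gaps of 14.2 and 40.4 kb. The third and the fourth were again on 3L, from 22446495 to 22451659 (score 924.05) and from 21041455 to 21045119 (score 919.53). With the first, they place 3 of the 4 strongest members on the centromere side of 3L, the fourth being the farthest of these from the centromere.

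The fifth member, on 3R from 10131526 to 10135440, scored 917.93 and had its nearer neighbour 7.85 kb away. The sixth, on 2L from 20282753 to 20294561, scored 896.65 and at 11808 bp was the widest. The seventh, on 3L from 9753538 to 9757140, scored 864.57 and had nearly equal gaps of 8.51 and 8.68 kb. The strongest member of X, from 3463615 to 3467705, scored 851.28 and stood 75.1 kb or more from any other peak. The last of the 10 were on 3L from 4839518 to 4843176 (score 771.26) and on 2L from 11472319 to 11476854 (score 758.31). The strongest member of 2R, from 19502114 to 19506978, scored 745.42 and ranked eleventh among the broad isolated peaks.

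Score rose with width among the members, over the whole range. Those below 1500 bp, 245 in number, had a median score of 87.3, and 108 of them scored 100 or more. From 1500 to 2000 bp the median was 185.0 (153 peaks), from 2000 to 3000 bp 264.4 (159 peaks), and from 3000 to 4000 bp 383.2 (74 peaks). The 48 members of 4000 to 6000 bp had a median of 456.9 and all scored above 100. Across the 684 peaks, Spearman's rho between width and score was 0.70 and Pearson's r on log10 values was 0.68; the points share one set of libraries and one peak calling, and no p is given. Among the broad peaks with a neighbour within 1000 bp rho was 0.71, and among those with one at 1000 to 5000 bp 0.72.

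Set beside other broad peaks of like width, the isolated ones had scores in the same range. Below 1500 bp their median of 87.3 stood between 79.2 for broad peaks with a neighbour at 1000 to 5000 bp and 92.6 for those with one within 1000 bp. From 1500 to 2000 bp the isolated peaks had the highest of the medians, 185.0 against 125.1 and 149.9. From 2000 to 3000 bp the order was 264.4, 234.5 and 273.0, and from 3000 to 4000 bp it was 383.2, 369.8 and 405.5. The interquartile ranges overlapped in each of these width ranges. Without regard to width, the median score was 187.9 for isolated broad peaks, 145.6 for those with a neighbour at 1000 to 5000 bp and 241.8 for those with one within 1000 bp, whose median width was also larger, at 2236 bp.

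**Figure D2:**
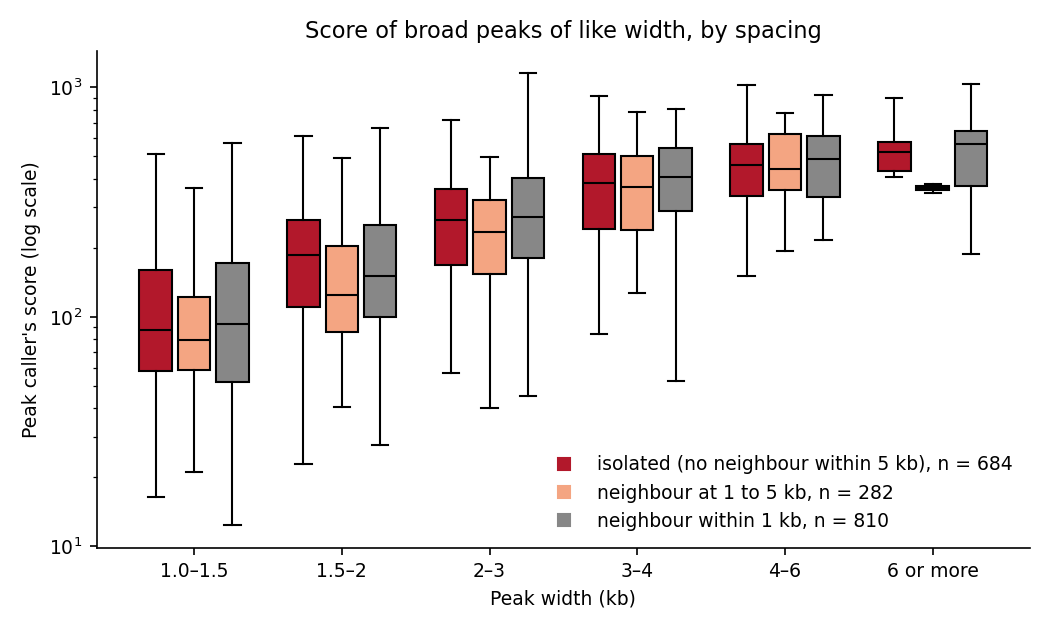
Score, on a log scale, of broad peaks in 6 ranges of width in kb, for the 684 isolated peaks (red), the 282 with the nearest neighbour at 1 to 5 kb (orange) and the 810 with one within 1 kb (grey); boxes show the quartiles and median, and whiskers the extremes. Medians climb with width in the isolated peaks from 87.3 to 521.4, and the boxes of the 3 kinds of peak overlap at every width below 6 kb.

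The score per kb of width had both its 3 highest and its 3 lowest values in members narrower than the median width of 1802.5 bp. Its median among the members was 92.8 per kb, with an interquartile range of 59.0 to 141.8, and it ran from 14.1 to 392.1. By width its median was 69.7 below 1500 bp, 113.9 at 3000 to 4000 bp and 66.5 in the 5 widest, so the median was highest at middle widths. The member with most score per kb lay on X from 20630865 to 20631919, a 1054 bp interval with a score of 413.32. It was followed by one on X from 14057234 to 14058787 (376.0 per kb) and one on 3L from 4899899 to 4901371 (347.9 per kb). The lowest values belonged to peaks on 3R from 14069878 to 14071036 (14.1 per kb), on 2L from 3699017 to 3700530 (15.1) and on X from 20267359 to 20268505 (17.4), with scores of 16.36, 22.82 and 19.89. Their widths were 1158, 1513 and 1146 bp.

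A small number of members combined a short width with a high score, or the reverse. Scores of 300 or more at widths below 1500 bp were held by 16 members, of which 6 lay on 3L, 4 on X, 3 on 2L, 2 on 3R and 1 on 2R. Widths of 3000 bp or more with scores below 150 were seen in 8 members, 6 of them on 3L and 2 on 2L. Both groups were defined after their values had been seen, and 3L held 18.6% of all members. The 5 widest members spanned 6356 to 11808 bp. Besides the one on 2L given above, they lay on 3R from 22847918 to 22855827 (score 433.55), on 2R from 19634353 to 19642197 (score 521.38) and from 11173241 to 11180746 (score 405.52), and on 3L from 5526839 to 5533195 (score 580.24).

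Most members were well beyond the gap limit of the rule on both sides, with unequal gaps. The smaller gap had a median of 13.3 kb and an interquartile range of 8.48 to 25.3 kb. The larger gap had a median of 43.9 kb, and the larger was a median of 2.55 times the smaller. Both gaps exceeded 10 kb at 451 members, 20 kb at 238, 50 kb at 49 and 100 kb at 3. Only 2 members lacked a neighbour on 1 side, both being the first peak of their arm, on 3L and X.

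The member with the largest smaller gap lay on 2L from 21682801 to 21684005. No listed peak was within 285 kb to its left or 361 kb to its right, and its score was 271.97. The next was on X from 21843870 to 21845806, with gaps of 336 and 121 kb and a score of 415.55. The third was the first peak of 3L, from 174878 to 178279, 112 kb from its only neighbour, with a score of 391.62. The fourth, on X from 20630865 to 20631919, also had the highest score per kb, and the fifth, on 2L from 11472319 to 11476854, was the last of the 10 strongest members. The 2L and X peaks at the head of this order lie near the centromere end of the listed span, where peaks are sparse.

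How far a member stood from its neighbours bore little relation to its score or width in rank order. Spearman's rho was 0.04 between smaller gap and score and -0.05 between smaller gap and width (n = 684 peaks of 1 list, no p given). The 233 members with a smaller gap of 5 to 10 kb had a median score of 182.7. The median was 188.0 for the 213 at 10 to 20 kb, 202.9 for the 189 at 20 to 50 kb and 227.8 for the 49 beyond 50 kb. The interquartile range of the last, 124.2 to 367.3, overlapped that of the first, 93.3 to 308.3.

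**Figure D3:**
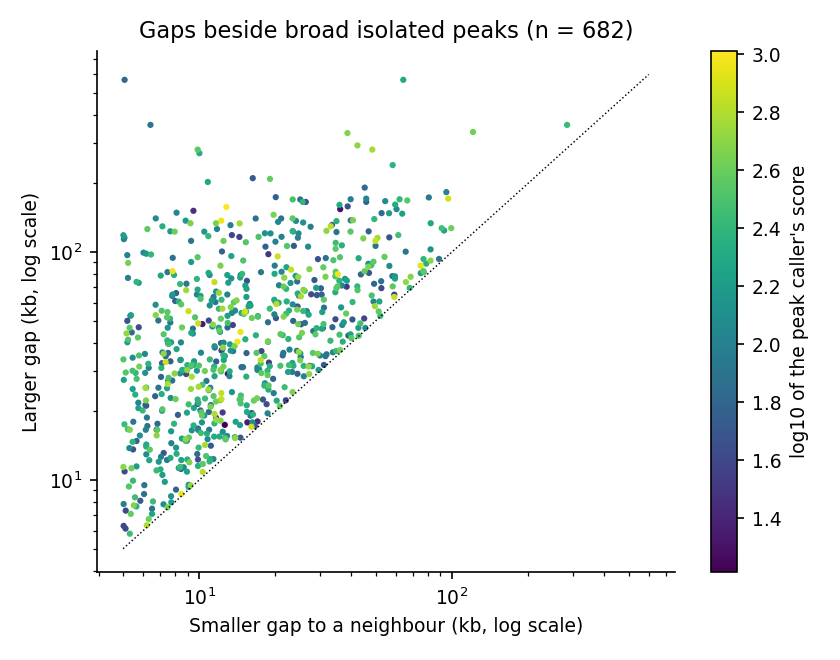
Larger against smaller gap to the neighbouring peaks, in kb on log scales, for the 682 broad isolated peaks with a neighbour on both sides, coloured by the log10 of the score; the dotted line marks equal gaps. Points fill the area above the line from 5.01 kb upward, and high and low scores are mixed throughout.

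The surroundings of the members were about as thin as those of the narrow isolated peaks. Within 50 kb on either side of the midpoint, a member had a median of 3 other peaks (interquartile range 2 to 5), the same median as a narrow isolated peak. Broad peaks with a closer neighbour had a median of 6. No other peak lay within 50 kb of 57 members (8.33%), and no other broad peak within 50 kb of 191 (27.9%). Part of this contrast is fixed by the rule, which empties the inner 5 kb.

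A member usually outscored the peak nearest to it, as broad peaks in general did. The nearest neighbour scored lower at 505 members (73.8%), and 403 (58.9%) scored above the neighbours on both sides. The nearest neighbour scored lower at 983 of the 1092 broad peaks that were not isolated (90.0%) and at 409 of the 1164 narrow isolated peaks (35.1%). The median over these neighbours was 51.4 for the score and 871.5 bp for the width. The nearest neighbour was itself broad and isolated at 196 members (28.7%) and narrow and isolated at 242 (35.4%). Of all peaks on the arms, 14.4% were broad and isolated and 24.5% narrow and isolated. In 70 pairs, 2 members were each other's nearest neighbour. By the rule, a member's neighbour already has 1 gap above 5000 bp, so nothing is read from these counts.

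Members stood singly or in runs. Of the 684, 365 stood singly in the order of peaks along their arm, and 319 belonged to 132 runs of 2 or more with no other peak between. Most of these runs, 97, held only 2 members. The longest run held 6 members, on 2L from 3618111 to 3720509, a stretch of 102 kb. Their scores in order of position were 399.88, 429.03, 239.41, 197.81, 22.82 and 140.47, so the run joined strong members with 1 of the weakest of all. Runs of 5 were found on 2R from 19796343 to 20027504 and from 20580421 to 20837146, on 3L from 4000988 to 4086950, on X from 11213427 to 11342200, and on 3R from 18354103 to 18509088. By the rule, the peak next to a member already has 1 gap above 5000 bp, so adjacent members are partly built in by the selection. Whether runs, of this length or any other, exceed what the order of peaks alone would give was not tested.

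Consecutive members were a median of 114 kb apart, midpoint to midpoint, with an interquartile range of 48.4 to 223 kb. Full windows of 1 Mb held a median of 6 members (interquartile range 4 to 7, 117 windows). The window with most, 13 among 49 peaks, was 3000001 to 4000000 on 2L, which contains the run of 6. It was followed by 3000001 to 4000000 on 2R with 12 among 43 peaks. No member lay in 4 windows. On 2R from 2000001 to 3000000 there were 24 peaks and on chromosome 4 from 1 to 1000000 there were 19, none of them broad and isolated, while the other two empty windows held at most 3 peaks.

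The X chromosome had the largest share of broad isolated peaks among the arms. There, 148 of 840 peaks (17.6%) were members, beside 118 of 895 on 2L (13.2%), 128 of 855 on 2R (15.0%), 127 of 980 on 3L (13.0%) and 161 of 1165 on 3R (13.8%). Broad peaks as such were no more frequent on X, at 38.0% of its peaks against 35.4 to 39.4% on the large autosomal arms. What was higher on X was the isolated share of its broad peaks, 46.4% against 35.2 to 38.0%, and that of all its peaks, 45.2% against 33.9 to 39.8%. X also had fewer listed peaks for its span, 37.6 per Mb against 40.3 to 42.3 on the large autosomal arms. Per Mb of occupied span, X held 6.62 members, 2R 6.33, 3R 5.81, 2L 5.35 and 3L 5.23. These differences were not tested, since gaps chose the members.

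Scores of the members overlapped from arm to arm. The median was 226.9 on 3L (interquartile range 102.4 to 367.9), 190.9 on 2R (102.1 to 357.8), 185.5 on 2L (83.9 to 354.4), 177.0 on 3R (82.5 to 289.2) and 177.0 on X (99.9 to 303.7). These ranges overlap widely, and the order of the medians is no more than a description. Median widths ran from 1652 bp on X to 1955 bp on 3L.

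**Figure D4:**
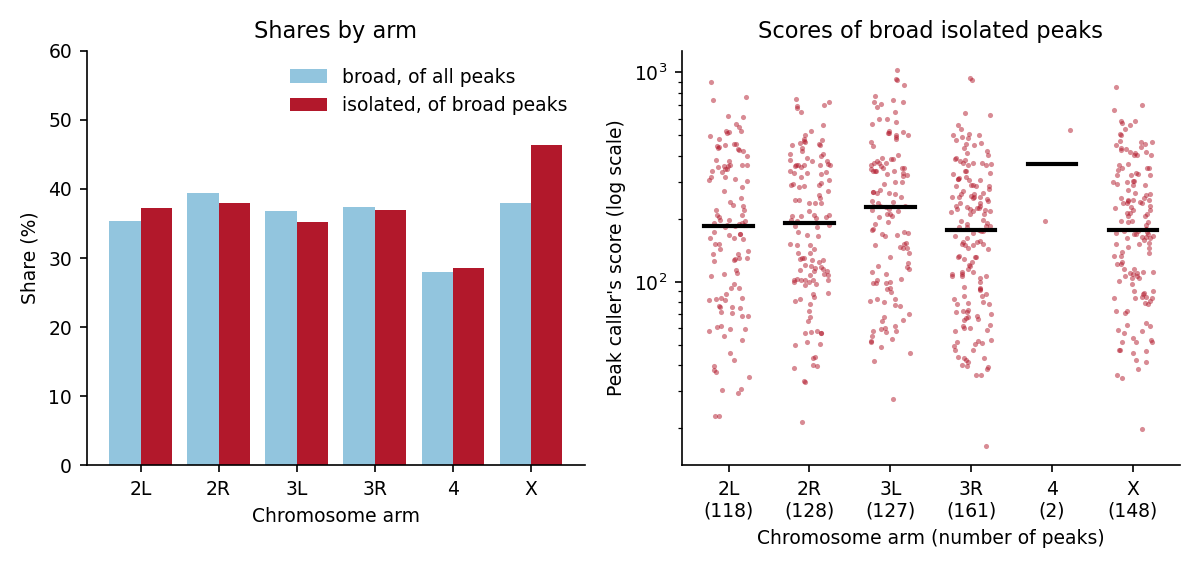
Left, the share of each arm's peaks that were broad (blue) and the share of its broad peaks that were isolated (red), in percent. Right, the score of every broad isolated peak by arm on a log scale, with black bars at the medians and the number of peaks in brackets; the isolated share reaches 46.4% on X and the medians of the 5 large arms lie between 177.0 and 226.9.

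Chromosome 4, a small and largely heterochromatic chromosome, carried only 2 members among 25 peaks. Both lay in the same part of it, as neighbours with 27.1 kb between them. The first, from 1104400 to 1105853, scored 195.97. The second, from 1132947 to 1135532, scored 531.0 and ranked 44th among the broad isolated peaks. The other 5 broad peaks of this chromosome had a neighbour within 5000 bp.

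Along the 5 large arms, members made up a similar share of the peaks in most parts. With the occupied span of each arm cut into 10 equal parts, the part next to the centromere held 44 members of 305 peaks (14.4%) over these arms together. The other parts held between 12.6% and 17.7%, the highest being the ninth, with 94 of 530. The ninth part of 2L held 27 members among 102 peaks, more than any other part of any arm. Next to the centromere, members were 5 of 39 peaks on 2R (12.8%), 5 of 46 on 3L (10.9%), 10 of 77 on 2L (13.0%) and 11 of 99 on 3R (11.1%). On X they were 13 of 44 (29.5%), the highest of these 5 shares, but the third part of X had more, 18 of 58. The 5 on 3L had a median score of 512.1, above that of every other part of an arm, a value that rests on 5 peaks.

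**Figure D5:**
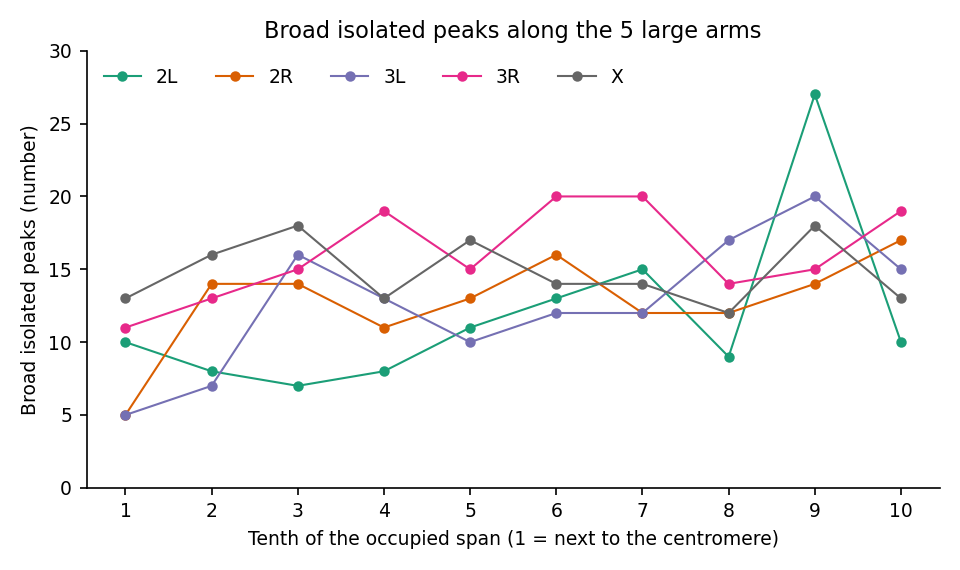
Number of broad isolated peaks in each of 10 equal parts of the occupied span of arms 2L, 2R, 3L, 3R and X, with part 1 next to the centromere and part 10 at the other end. Values range from 5 in part 1 of 2R and 3L to 27 in part 9 of 2L.

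The count of isolated peaks changed when the weak peaks of the list were left out. Of the 1092 broad peaks that were not isolated, 621 (56.9%) had only narrow peaks within 5000 bp, and 539 (49.4%) had only peaks scoring at or below the median. Narrow peaks were also the majority of the list, since 37.3% of all peaks were broad, and the median splits the list evenly by definition. In 824 (75.5%) the broad peak outscored every neighbour within that distance. When peaks at or below the median score were ignored, 1204 peaks were broad and isolated, of which 673 were among the 684. This overlap was fixed in advance, since leaving out peaks can only widen gaps. The members lost were the 11 that scored at or below the median themselves. Leaving out peaks of any score would also widen gaps, and whether weak ones matter more was not tested.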

How the data were processed

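ChIP-seq of Su(Hw) in embryos of 1 strain and stage comprised 4 libraries by the labels, 2 from ChIP and 2 from input. The deposited file is 1 peak list for the series. Its intervals were called with MACS on FlyBase release 5, per the file headers. The submitters' processing notes name BWA, MACS2, the build BDGP5 and CASAVA in versions 1.7.0.2 and 1.7.0.3. What each did, how libraries were pooled and which threshold applied is not given in the sources used here. Pooling and threshold bear on the number of weak peaks and on the division of a stretch, hence on which peaks count as isolated. Each interval carries a score as the authors deposited it, from the peak caller and of a statistic not named, which served only within this list. Depth is unknown.

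Width was end minus start, and a gap the next start minus the previous end, over all intervals of a sequence. Starts may count from 0, so that a browser may show a printed start 1 base higher. Regions were named by a rule: the 10 highest scores, the 5 widest, the 5 with the largest smaller gap, all of chromosome 4, the highest of each arm, the 3 highest and lowest scores per kb, and those beside the limits. Runs, windows and other named regions are outside it and were chosen after their values were seen. The members, the lists and the groups of comparison were chosen with earlier results of these data known. The gene table at hand was of Release 6 and was not used. The selection was tested on simulated data. Alternatives changed the width limit, the gap limit, the distance measure, the joining of intervals, the score threshold and the width convention. The software was scipy 1.17.1, pandas 2.3.3 and numpy 2.4.6 in Python 3.11.15, with matplotlib 3.10.9 for figures.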

Additional observations from a re-analysis of the deposited data

Results flagged for a closer look

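Outside the 6 arms, 5 intervals met the same limits of width and gap; they are listed here because the comparisons above use only the arms, and no control level was at hand. Of these, 3 lay on the scaffold collection Uextra (scores 586.32, 104.6 and 74.8), 1 on U (397.75) and 1 on 2RHet (204.28). U and Uextra are joined scaffolds, so gaps on them need not be distances in the genome.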

How the results depend on the processing

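The number of broad isolated peaks, 684, moved to 451 with a gap limit of 10000 bp and to 439 with a width limit of 1500 bp. It moved to 1093 when intervals within 500 bp were joined first, and to 1204 when only intervals scoring above the median were counted. As a share of the peaks counted, 14.4%, they came to 9.47% with the gap limit of 10000 bp, 17.5% with one of 2500 bp, 16.2% with distances between midpoints, 9.22% with a width limit of 1500 bp, 17.8% with one of 800 bp, 29.5% after joining and 50.8% among intervals above the median score. The median width of 1802.5 bp became 2312 bp with the width limit of 1500 bp, 1545 bp with 800 bp, 2090 bp after joining and 1980.5 bp above the median score. The median score of 187.9 became 260.99 and 145.7 with width limits of 1500 and 800 bp and 221.2 above the median score. The share scoring 100 or more, 73.7%, became 90.2% and 63.3% with those width limits and 79.2% above the median score. The other 19 of the 40 values moved by less than 1.5 times for the number and stayed within the 95% interval of the main value for the rest. That interval takes peaks as independent and served only as a yardstick. No paired analysis was possible because values of single libraries are not part of the list, which also means that leaving out a replicate could not be tried.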
